A study of Mus musculus with 24 samples.

Results

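The genes of the constitutive proteasome were followed in conventional CD4+ T cells (Tconv cells) of mice that differ in their mitochondrial DNA. The members were the protein-coding genes of the count table with a Psma, Psmb, Psmc, Psmd, Psme, Psmf or Psmg symbol followed by a number, without the inducible immunoproteasome genes Psmb8, Psmb9 and Psmb10. This rule used symbols only and gave 48 of the 55414 genes listed. Of these, 16 encode the core (8 Psma and 8 Psmb genes), 27 carry a regulatory symbol (Psmc, Psmd or Psme), 1 is the inhibitor gene Psmf1 and 4 are the assembly chaperone genes Psmg1 to Psmg4. The symbol rule also took in Psmc3ip, which encodes a recombination factor, and Psme3ip1, which encodes a protein that binds an activator, and both are described apart and left out of summed levels.

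The cells were CD4+ CD25− cells isolated from spleen, labelled TE, of mtDNA-B6 mice (genotype label WT) and of mtDNA-NZB mice (genotype label NZB). Both kinds of mice carry the C57BL/6J nuclear genome and differ in the strain that gave the mtDNA, C57BL/6J or NZB, and no further allele is given for them. Most experiments of the study used young adult males, and the labels give neither age nor sex for these libraries. Cells were taken at rest (RES) or after a culture of several days with CD3/CD28 beads (ACT), which trigger the T cell receptor together with the CD28 costimulus, and the study's methods name IL-2, a T cell growth factor, beside the beads. Resting cells are not described as having been cultured, so activation, IL-2 and culture cannot be told apart. The 4 groups held 6 libraries each, 24 in all, and since the labels do not say whether they came from separate mice, p-values measure the spread between libraries only.

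The proteasome degrades proteins that have been tagged with ubiquitin. Its barrel-shaped core is built of outer rings of alpha subunits, which gate the entry, and inner rings of beta subunits, of which Psmb5, Psmb6 and Psmb7 encode the catalytic ones. A regulatory particle caps the core: its Psmc-encoded ATPases unfold the substrate and its Psmd-encoded subunits bind and remove ubiquitin, while the Psme-encoded activators open the core without ubiquitin. In T cells activation is followed by growth and division, with a high rate of protein synthesis and turnover, and lymphocytes also hold the immunoproteasome, in which Psmb8, Psmb9 and Psmb10 take the places of Psmb5, Psmb6 and Psmb7.

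The bulk MARS-seq libraries hold the 3′ ends of polyadenylated RNA, and a unique molecular identifier (UMI) on every captured molecule lets amplified copies be counted once. Levels are given as CPM, the UMI counts divided by the TMM-scaled library total and multiplied by 1000000, and fold changes as log2 values of edgeR's quasi-likelihood fit with their standard error (SE). Genes were called where the p adjusted by the Benjamini-Hochberg method over 10566 genes tested did not exceed 0.05. The library totals ranged from 51409 to 6449395 UMI counts. The smallest total belonged to replicate 2 of the resting mtDNA-NZB group, where 1 count is worth 16.7 CPM, so its values for single members carry a large counting error and are given apart where they lie outside the range of the other 5 libraries. Neutrophil markers (8 genes) summed to between 405 and 20188 CPM in the resting libraries and between 7.41 and 177 CPM in the activated ones. Monocyte and macrophage markers (7 genes) summed to between 418 and 2862 CPM at rest and to between 12.3 and 112 CPM after activation, with C1qa at 0 in every activated library. Erythroid markers (7 genes) summed to between 91.9 and 7176 CPM at rest and to between 16.2 and 171 CPM after activation, whereas T cell markers (8 genes) lay between 3397 and 5536 CPM in all libraries. B cell markers (6 genes) lay between 459 and 6330 CPM in all libraries, and CD8 markers (2 genes) had medians of 68.3 and 51.6 CPM at rest and of 276 and 164 CPM after activation in mtDNA-B6 and mtDNA-NZB libraries. Platelet markers (4 genes) went with activation in the same direction as the members: they summed to between 8.23 and 53.0 CPM at rest and between 72.2 and 501 CPM after activation in mtDNA-B6 libraries (medians 18.9 and 146) and to between 10.5 and 50.2 CPM and between 17.9 and 243 CPM in mtDNA-NZB libraries (medians 17.7 and 102), and 2 of the 3 tested rose in both haplotypes. NK cell markers (3 genes) lay between 4.29 and 69.8 CPM and Treg markers (2 genes) between 12.9 and 45.8 CPM in all libraries. Activation markers (5 genes) lay between 201 and 319 CPM at rest and between 473 and 913 CPM after activation. These sums can join opposite calls. Of the activation markers, 4 had a called rise in each haplotype. The other was called lower in mtDNA-B6 cells (log2 fold change -0.79), and 1 was uncalled in mtDNA-NZB cells (-0.25). T cell markers held 2 called rises and 1 called fall in each haplotype. NK cell markers (2 tested) held 1 of each with mtDNA-B6 and 1 fall with mtDNA-NZB. Treg markers held 1 fall with mtDNA-B6 and 1 rise with mtDNA-NZB. Fewer cells of a type and less RNA per cell cannot be told apart in these bulk samples, and the part of other cell types in the results below was not tested.

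Several members carry sequence motifs at their starts that are known to bind regulators of growth and stress genes. RefSeq promoters (250 bases before to 50 after each start, build GRCm38.p6) were found for 40 of the 48 members and searched on both strands. The ETS motif CCGGAAG was present for 16 of the 40 members (40%), against 22.3% of 7976 other tested genes and 9.93% of all 27025 genes in the table. The motif was also present for Psmc6 and Psme3ip1, which were called on activation in neither haplotype, and for Psmd4, called in mtDNA-NZB cells only. It was not found for Psmb5, which had the largest called rise of the core. Windows are shown only for members with the motif that rose most in their group or differed most between haplotypes. The motif or its reverse complement is in capitals.
Psma6, chr12:55398812-55398840, + strand: ccgccggtgctCCGGAAGcagtagccata
Psmc1, chr12:100110163-100110191, + strand: tggtggatgcaCTTCCGGcggtggcgatt
Psmd6, chr14:14120973-14121001, - strand: cagagacgcgaCCGGAAGtcagactggcg
Psmd13, chr7:140882377-140882405, + strand: cgcccgcggtgCCGGAAGtgagcgagcac
Psmg1, chr16:95991012-95991040, - strand: ctcgcggcggaCCGGAAGctcttaggttc
Psmg3, chr5:139826873-139826901, - strand: acggacaggaaCCGGAAGttctcgccggg

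The core of the antioxidant response element, TGACNNNGC, the motif read by the transcription factors encoded by Nfe2l1 and Nfe2l2, was present for 6 of the 40 members (15%), against 17.2% of the other tested genes. Among the carriers were Psmc6 and Psmd9, called on activation in neither haplotype, and Psmd12, which rose in both. The motif is shown for both catalytic subunit genes that carry it and for the activator gene Psme4, where the capitals are the reverse complement.
Psmb5, chr14:54618024-54618052, - strand: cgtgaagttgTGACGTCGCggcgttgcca
Psmb6, chr11:70525338-70525366, + strand: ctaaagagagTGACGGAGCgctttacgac
Psme4, chr11:30771758-30771786, + strand: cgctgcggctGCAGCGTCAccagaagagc

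The CCAAT box (CCAAT) was present for 37.5% of the members and 43.6% of the other tested genes, and the E-box (CACGTG) for 10% and 12.2%. These shares describe letters in a window and carry no test, and no motif overlaps another in the windows shown.

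Transcripts of most members rose when Tconv cells were activated, and no member fell in either haplotype. In mtDNA-B6 cells 35 of the 46 members tested rose, where 22.4% of all genes tested rose and 24.5% fell. In mtDNA-NZB cells 37 of 46 rose, where 25.2% of all genes rose and 28.4% fell. Without replicate 2 of the resting mtDNA-NZB group the counts were 36 and 37, and with 21 libraries, a set taken from an earlier analysis of these data that leaves out replicates 2 and 6 of the resting and replicate 6 of the activated mtDNA-NZB group, they were 36 and 39. The median log2 fold change of the members was 0.57 in mtDNA-B6 and 0.77 in mtDNA-NZB cells, beside -0.03 and -0.06 over all genes. Most changes were small: 1 member of mtDNA-B6 and 13 of mtDNA-NZB cells were called with a log2 fold change of at least 1. The shares of all genes that reached this cut-off, or that rose in both haplotypes, are not given here. The counts at the cut-off and in both haplotypes therefore cannot be set against all genes. Of the 46 members tested, 33 rose in both haplotypes, and 2 (Psma1 and Psme4) passed the test in mtDNA-B6 cells only. In mtDNA-NZB cells only, 4 (Psmd4, Psmd7, Psmf1 and Psmg2) passed it, and 7 (Psma2, Psmc6, Psmd5, Psmd9, Psmd10, Psme2b and Psme3ip1) passed it in neither haplotype. None of these differences in call between haplotypes passed the test of the difference itself, given below. Some of the calls also depended on the libraries used. With the 21 libraries Psma1 (adjusted p = 0.0414) and Psmd9 (0.0208) were called in mtDNA-NZB cells as well, and Psmd7 (0.0276) in mtDNA-B6 cells.

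**Figure D1:**
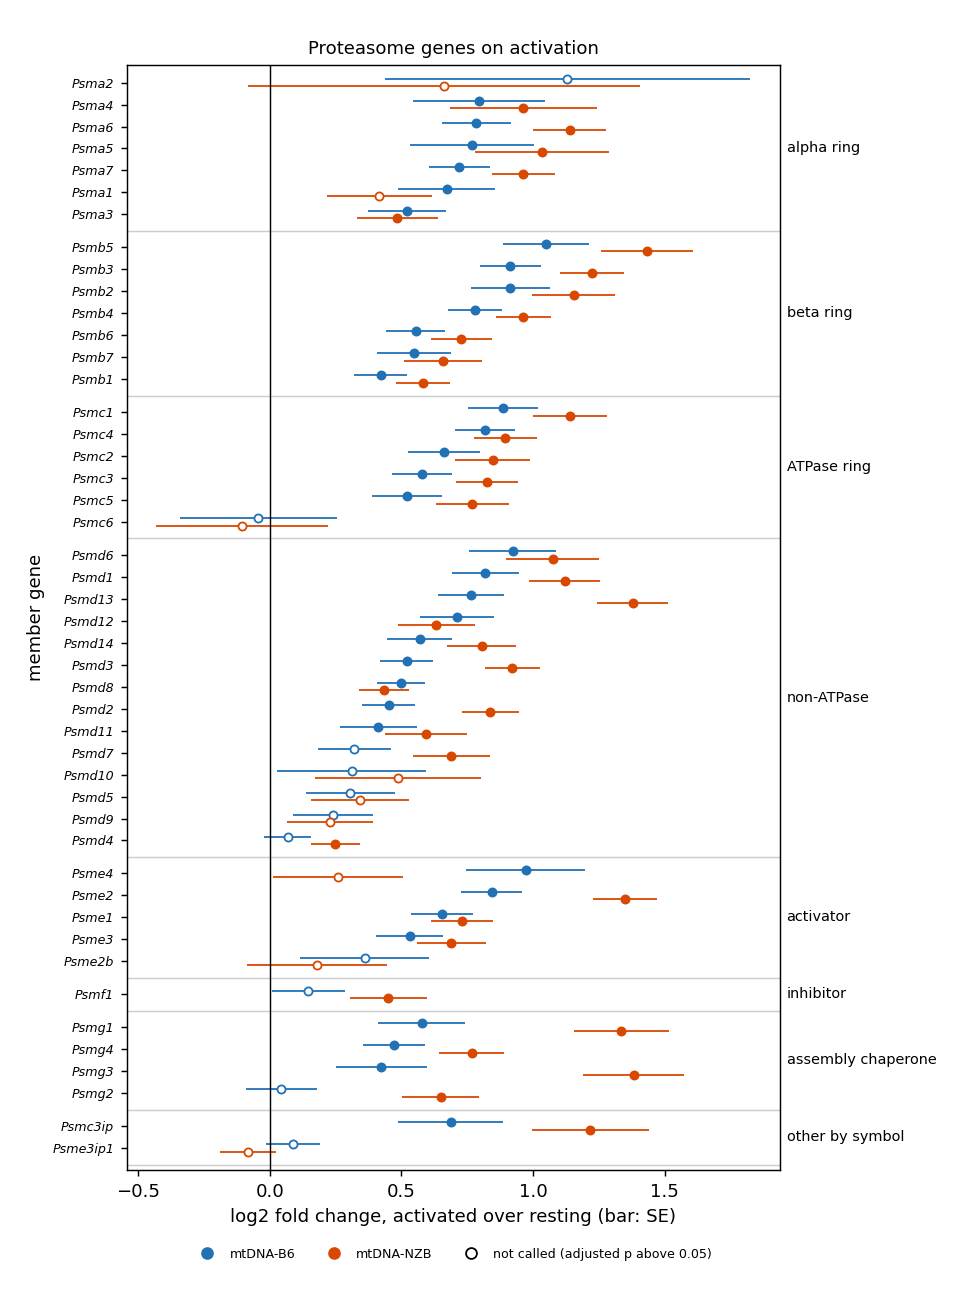
Log2 fold change of the 46 members tested (vertical axis, by role), activated over resting, in mtDNA-B6 (blue) and mtDNA-NZB (orange) cells, 6 libraries per group; bars are SE, and open points are not called. All but 3 points lie to the right of 0, with Psmb5 the furthest right in mtDNA-NZB cells, at 1.43.

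Library by library, 25 members had all 6 activated mtDNA-B6 libraries above all 6 resting ones, as had 15.4% of all genes. In mtDNA-NZB cells 25 members were separated in this way beside 12% of all genes, and without replicate 2 of the resting group 28 members beside 14.2%. Of the 34 tested members whose last 1000 bases overlap no other protein-coding gene, 26 rose in mtDNA-B6 and 27 in mtDNA-NZB cells. The reads per UMI divided the libraries into 3 sets of 8, which the groups share unevenly: the only set with both states of mtDNA-B6 cells holds 1 activated and 4 resting libraries. In that set 44 of 46 members were higher in the activated library, with a median difference of 0.72 in log2 CPM. In mtDNA-NZB cells all 3 sets held both states, with 2 activated libraries each beside 1, 1 and 4 resting ones, replicate 2 among the 4. There 43, 45 and 43 members were higher when activated, with medians of 0.77, 0.85 and 0.84. The share of all genes that were higher within a set is not given here. The counts within sets therefore cannot be set against all genes.

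Summed over genes, the CPM of the core made up 0.202 to 0.233% of the TMM-scaled UMI total in resting mtDNA-B6 libraries (median 0.211%). In activated ones they made up 0.318 to 0.360% (median 0.336%), and all percentages below are of that scaled total. In mtDNA-NZB cells the core took 0.190 to 0.236% at rest without replicate 2, which was at 0.151% (median of all 6 0.192%), and 0.297 to 0.422% after activation (median 0.365%). The regulatory genes took 0.313 to 0.352% at rest and 0.468 to 0.571% after activation in mtDNA-B6 cells, and 0.297 to 0.324%, with replicate 2 at 0.276%, and 0.465 to 0.614% in mtDNA-NZB cells. Resting and activated libraries did not overlap for either sum in either haplotype. The sum of the regulatory genes divided by that of the core had medians of 1.56 at rest and 1.51 after activation in mtDNA-B6 libraries, and of 1.60 and 1.5 in mtDNA-NZB libraries, with ranges that overlapped.

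**Figure D2:**
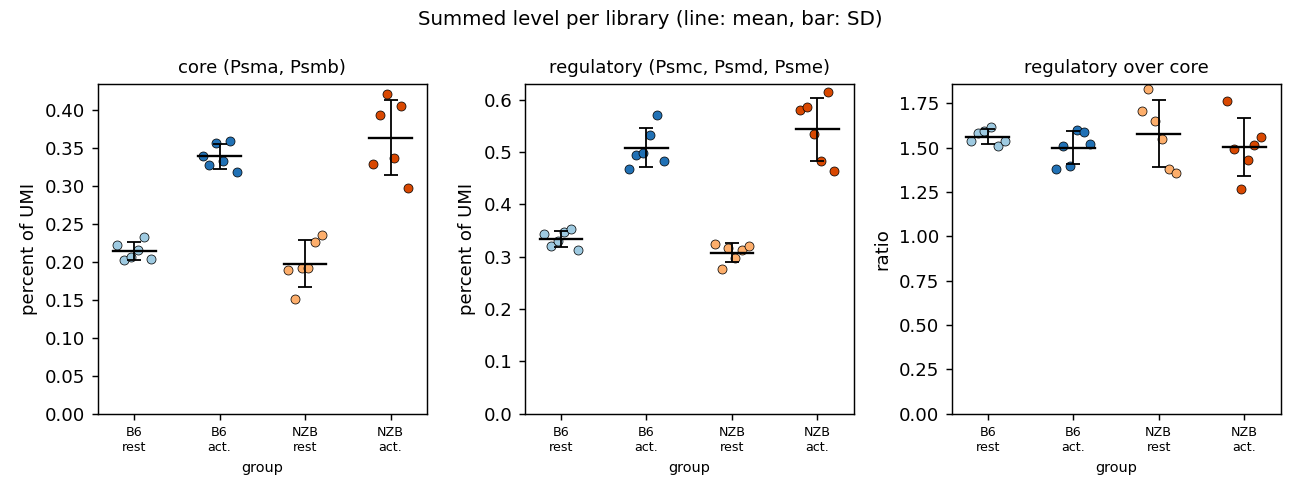
Summed level of core genes and of regulatory genes as a percentage of the TMM-scaled UMI total (axis: percent of UMI), and their ratio (vertical axes), in each of the 24 libraries by group; lines are means and bars SD. In both haplotypes the resting libraries lie below the activated ones for both sums, and the ratio overlaps between states.

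Among the core genes, 13 of the 14 tested rose with the mtDNA-B6 and 12 with the mtDNA-NZB haplotype. Psmb5, which encodes the catalytic subunit with chymotrypsin-like activity, had the largest called rise of the core in both haplotypes. Its level ran from 48.7 to 72.9 CPM in resting mtDNA-B6 libraries (median 56.4) and from 105.7 to 148 CPM in activated ones (median 118). In mtDNA-NZB cells it ran from 39.0 to 83.6 CPM at rest (median 58.4), with the highest value in replicate 2, and from 99.5 to 178 CPM after activation (median 159). All activated libraries thus lay above all resting ones, and the log2 fold change was 1.05 (SE 0.16, adjusted p = 1.03e-05) in mtDNA-B6 and 1.43 (SE 0.18, adjusted p = 2.48e-07) in mtDNA-NZB cells.

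The other catalytic subunit genes rose less. Psmb6, for the caspase-like subunit, lay between 237 and 302 CPM at rest (median 254) and between 361 and 453 CPM after activation (median 375) in mtDNA-B6 cells. With the mtDNA-NZB haplotype Psmb6 lay between 233 and 315 CPM (median 258) and between 350.5 and 555 CPM (median 440.3). The groups did not overlap, and the log2 fold changes were 0.55 (SE 0.11, adjusted p = 0.000242) and 0.73 (SE 0.12, adjusted p = 1.05e-05). Psmb7, for the trypsin-like subunit, rose from 76.4 to 94.3 CPM (median 81.6) to 99.0 to 141 CPM (median 124) in mtDNA-B6 cells, with a log2 fold change of 0.55 (SE 0.14, adjusted p = 0.00235). Its libraries overlapped in mtDNA-NZB cells, where it lay between 63.8 and 105 CPM at rest without replicate 2, which was at 50.2 CPM (median of all 6 65.1), and between 68.7 and 142 CPM after activation (median 122), with a log2 fold change of 0.66 (SE 0.15, adjusted p = 0.000581).

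Of the structural beta subunit genes, Psmb1 rose least. It lay between 579.7 and 651 CPM in resting and between 748 and 849 CPM in activated mtDNA-B6 libraries (medians 597 and 809), a log2 fold change of 0.42 (SE 0.10, adjusted p = 0.00125). In mtDNA-NZB cells the medians were 584 and 834 CPM and the log2 fold change 0.58 (SE 0.10, adjusted p = 3.44e-05). Psmb2, Psmb3 and Psmb4 rose by 0.78 to 0.91 on the log2 scale in mtDNA-B6 cells and by 0.96 to 1.22 in mtDNA-NZB cells. Psmb11, which encodes the beta subunit of thymic epithelial cells, had no count in any library, which allows a level of up to 0.0394 CPM over the 76200568 UMI counts of the series (3 counts; counting error only).

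Of the 7 alpha ring genes tested, 6 rose in mtDNA-B6 and 5 in mtDNA-NZB cells. Psma3 showed the smallest change of the group in mtDNA-B6 cells, with 59.1 to 90.4 CPM at rest (median 68.1) and 81.6 to 118 CPM after activation (median 102). The states overlapped, and the log2 fold change was 0.52 (SE 0.15, adjusted p = 0.00521). In mtDNA-NZB cells Psma3 ran from 71.5 to 90.3 CPM at rest without replicate 2, which was at 16.7 CPM, and from 73.0 to 134 CPM after activation, a log2 fold change of 0.48 (SE 0.15, adjusted p = 0.0102).

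Psma2 had the largest fitted change of the alpha ring in mtDNA-B6 cells but also the widest spread of all members, and it was not called. Its level ran from 5.45 to 85.3 CPM in resting and from 16.2 to 221 CPM in activated mtDNA-B6 libraries, and from 3.34 to 103 and from 13.4 to 159 CPM in mtDNA-NZB libraries. The log2 fold changes were 1.13 (SE 0.69, adjusted p = 0.187) and 0.66 (SE 0.74, adjusted p = 0.469). The last 1000 bases of Psma2 overlap a protein-coding gene on the same strand, AW209491, so reads there may be divided between them. Psma8, which encodes a testis form of an alpha subunit, had 22 counts in all, at most 1.34 CPM in a library, and was not tested.

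**Figure D3:**
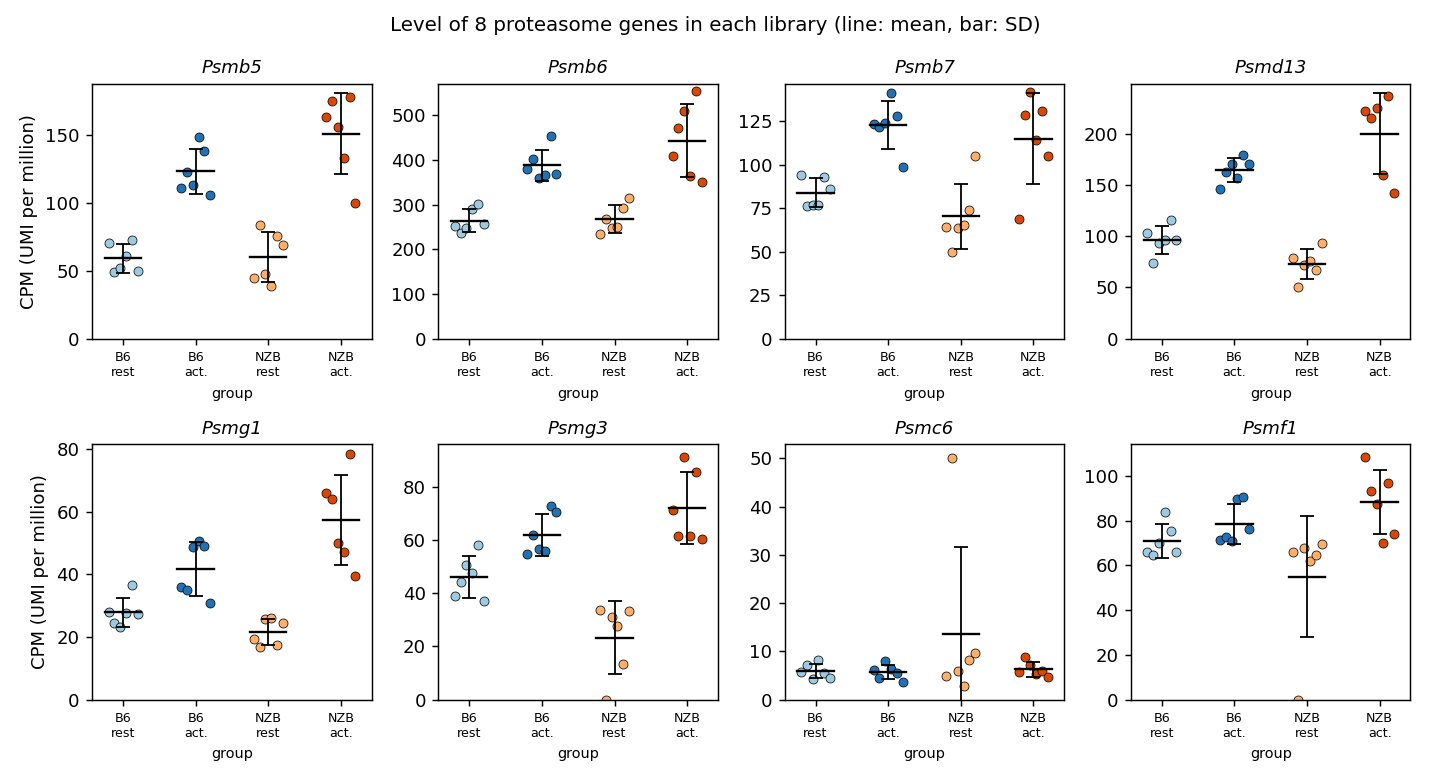
Level of 8 members (vertical axes, CPM, starting at 0) in each of the 24 libraries by group; lines are means and bars SD of 6 libraries. Psmb5 and Psmd13 separate the states in both haplotypes, Psmg3 overlaps between them in mtDNA-B6 libraries, and replicate 2 of the resting mtDNA-NZB group stands apart for Psmc6 (50.2 CPM), Psmf1 (0) and Psmg3 (0).

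Among the 27 genes with a regulatory symbol, 19 rose with the mtDNA-B6 and 20 with the mtDNA-NZB haplotype, and among the 25 without Psmc3ip and Psme3ip1 the counts were 18 and 19. In the ATPase ring Psmc1 to Psmc5 rose in both haplotypes, and Psmc1 rose most. Psmc1 lay between 108 and 130.2 CPM at rest and between 187 and 250.4 CPM after activation in mtDNA-B6 cells, and between 93.3 and 137 CPM, with replicate 2 at 50.2 CPM, and between 163 and 285 CPM in mtDNA-NZB cells. The states did not overlap, with log2 fold changes of 0.89 (SE 0.13, adjusted p = 7.29e-06) and 1.14 (SE 0.14, adjusted p = 2.84e-07). Psmc6, the remaining ATPase gene, was near 6 CPM in every group, with medians of 5.58 and 5.84 CPM in mtDNA-B6 and of 7.11 and 5.79 CPM in mtDNA-NZB cells. Its log2 fold changes were -0.04 (SE 0.30, adjusted p = 0.966) and -0.10 (SE 0.33, adjusted p = 0.932), with signs that changed when single libraries were left out. Only 450 UMI counts fell on Psmc6 in all libraries, so its SE exceeded those of the other ATPase genes, 0.11 to 0.14.

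Of the 11 non-ATPase subunit genes, 9 rose in mtDNA-B6 cells and all 11 in mtDNA-NZB cells. Psmd6, a scaffold subunit of the lid, rose most in mtDNA-B6 cells, from 40.6 to 72.4 CPM (median 52.5) to 78.1 to 118 CPM (median 109.8), a log2 fold change of 0.92 (SE 0.17, adjusted p = 6.46e-05). In mtDNA-NZB cells it went from a median of 51.5 to 118 CPM with no overlap, a log2 fold change of 1.08 (SE 0.18, adjusted p = 1.54e-05). Psmd14, which encodes the enzyme that removes ubiquitin chains, rose by 0.57 (SE 0.12) and 0.80 (SE 0.13) on the log2 scale.

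Psmd13, another lid subunit gene, rose in both haplotypes. It lay between 73.4 and 115 CPM at rest and between 146 and 179 CPM after activation in mtDNA-B6 cells, a log2 fold change of 0.76 (SE 0.13, adjusted p = 1.96e-05). In mtDNA-NZB cells it lay between 67.1 and 93.3 CPM at rest without replicate 2 (50.2 CPM) and between 142 and 237 CPM after activation, a log2 fold change of 1.38 (SE 0.13, adjusted p = 7.42e-09). Its last 1000 bases overlap Cox8b on the opposite strand, and the sources used here do not say that counting used strand.

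Psmd4, which encodes a ubiquitin receptor, changed least of the group. It lay between 242 and 284 CPM in resting and between 254 and 305 CPM in activated mtDNA-B6 libraries, with a log2 fold change of 0.07 (SE 0.09, adjusted p = 0.560). In mtDNA-NZB cells it went from a median of 245 to 305 CPM and passed the test with a log2 fold change of 0.25 (SE 0.09, adjusted p = 0.0263), which it did not without replicate 3 or 5 of the activated group (lowest 0.21, adjusted p up to 0.0641). This call was also lost in 5 of the other ways of processing (adjusted p up to 0.329). They were no filter on low counts, the filter of 50 counts in 6 libraries, the second table, 12 libraries and the block by description number. Psmd5, Psmd9 and Psmd10, which encode chaperones that assemble the regulatory particle and are not part of the finished complex, passed the test in neither haplotype, with log2 fold changes between 0.24 and 0.31 in mtDNA-B6 and between 0.23 and 0.49 in mtDNA-NZB cells (adjusted p of 0.120 or more). With the 21 libraries Psmd9 passed it in mtDNA-NZB cells (log2 fold change 0.44, adjusted p = 0.0208).

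Of the 5 activator genes, Psme1, Psme2 and Psme3 rose in both haplotypes. Psme2, which with Psme1 encodes the interferon-inducible activator, rose from 249 to 312 CPM to 472 to 573 CPM in mtDNA-B6 cells and from 179 to 273 CPM, with replicate 2 at 150.5 CPM, to 466 to 681 CPM in mtDNA-NZB cells. Its log2 fold changes were 0.84 (SE 0.12, adjusted p = 1.89e-06) and 1.35 (SE 0.12, adjusted p = 1.89e-09). Psme4, for a large single-chain activator, rose in mtDNA-B6 cells from 7.72 to 12.2 CPM to 13.5 to 23.3 CPM, a log2 fold change of 0.97 (SE 0.23, adjusted p = 0.00105). In mtDNA-NZB cells Psme4 lay between 8.02 and 17.5 CPM at rest without replicate 2 (33.4 CPM) and between 7.49 and 21.5 CPM after activation, with a log2 fold change of 0.26 (SE 0.25, adjusted p = 0.388). Psme2b, a close copy of Psme2 whose reads are uncertain for that reason, had log2 fold changes of 0.36 (SE 0.25, adjusted p = 0.236) and 0.18 (SE 0.27, adjusted p = 0.594). It lay between 16.1 and 36.7 CPM in mtDNA-B6 libraries, and replicate 2 of the resting mtDNA-NZB group, at 167 CPM, stood above all others.

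Psmf1, which encodes an inhibitor of the core, lay between 64.9 and 84.1 CPM at rest and between 71.1 and 90.4 CPM after activation in mtDNA-B6 cells, with a log2 fold change of 0.15 (SE 0.14, adjusted p = 0.404). In mtDNA-NZB cells Psmf1 lay between 62.1 and 69.4 CPM at rest without replicate 2, where it had no count, and between 70.2 and 109 CPM after activation, a log2 fold change of 0.45 (SE 0.15, adjusted p = 0.0116).

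The chaperones that assemble the core showed the widest gap between haplotypes in their fitted responses, with no gap that passed its own test. Psmg1 lay between 23.2 and 36.5 CPM in resting and between 30.8 and 50.6 CPM in activated mtDNA-B6 libraries, a log2 fold change of 0.58 (SE 0.16, adjusted p = 0.00560). In mtDNA-NZB cells it rose from 17.3 to 25.9 CPM, with replicate 2 at 16.7 CPM, to 39.5 to 78.4 CPM without overlap, a log2 fold change of 1.34 (SE 0.18, adjusted p = 9.92e-07). Psmg1 and Psmg2 encode partners of a heterodimer that holds the alpha ring. Psmg2 had medians of 55.9 and 54.7 CPM in resting and activated mtDNA-B6 cells (log2 fold change 0.04, SE 0.14, adjusted p = 0.816) and of 41.4 and 63.9 CPM in mtDNA-NZB cells (0.65, SE 0.15, adjusted p = 0.000552).

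Psmg3, whose product pairs with that of Psmg4, lay between 37.0 and 58.1 CPM at rest and between 54.7 and 73.1 CPM after activation in mtDNA-B6 cells, a log2 fold change of 0.42 (SE 0.17, adjusted p = 0.0474). This call was lost in 7 of the other ways of processing and in 11 of the 24 fits that left out 1 library (replicates 2 to 6 of the activated and 1, 2, 4 and 6 of the resting mtDNA-B6 group, replicate 1 of the activated and 4 of the resting mtDNA-NZB group), with log2 fold changes of 0.37 to 0.51 and adjusted p up to 0.104. In mtDNA-NZB cells Psmg3 lay between 13.2 and 33.9 CPM at rest, without replicate 2 where it had no count, and between 60.6 and 91.6 CPM after activation, a log2 fold change of 1.38 (SE 0.19, adjusted p = 1.49e-06). Psmg4 rose by 0.47 (SE 0.12) and 0.77 (SE 0.12). Psmg3 overlaps a predicted gene on the same strand within its last 1000 bases.

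The genes taken in by their symbols alone went different ways. Psmc3ip ran from 8.89 to 19.9 CPM at rest to 18.3 to 33.6 CPM after activation in mtDNA-B6 cells (log2 fold change 0.69, SE 0.20, adjusted p = 0.00626) and rose in mtDNA-NZB cells with a log2 fold change of 1.22 (SE 0.22, adjusted p = 5.51e-05). Psme3ip1 lay between 48.0 and 72.9 CPM in all mtDNA-B6 libraries, with log2 fold changes of 0.09 (SE 0.10, adjusted p = 0.496) and -0.08 (SE 0.11, adjusted p = 0.536). Without these genes 34 of 44 members tested rose in mtDNA-B6 and 36 in mtDNA-NZB cells.

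Between haplotypes, few members were called. At rest 1 of 46 members was called, beside 2.76% of all genes tested: Psmg3 was lower in mtDNA-NZB cells, with a log2 fold change of -0.74 (SE 0.19, adjusted p = 0.0389). Its highest resting mtDNA-NZB library (33.9 CPM) lay below its lowest resting mtDNA-B6 library (37.0 CPM). That separation adds no support to the call, which was made on the same values. The share of all genes separated in this way at rest is not given here. The call was lost without replicate 5 of the resting mtDNA-NZB group or replicate 1, 3, 4 or 5 of the resting mtDNA-B6 group (log2 fold change -0.82 to -0.58 and adjusted p up to 0.163 when 1 library was left out). The adjusted p was 0.0211 over the 21 libraries and 0.117 with the set of libraries as a term. At rest 2196 genes, 7 of them members, had an unadjusted p under 0.05. Without 1 library these counts ran from 1250 to 2455 genes and from 3 to 10 members. The median SE of the members at rest was 0.14, so differences could have been missed. Of the 46 members, 34 had a negative and 12 a positive difference at rest, with a median log2 difference of -0.11 beside -0.01 over all genes. This median ran from -0.16 (without replicate 6 of the resting mtDNA-NZB group) to -0.079 (without replicate 1 of the resting mtDNA-B6 group) when 1 library was left out.

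After activation no member was called, as with 0% of all genes, among which 327 had an unadjusted p under 0.05, 2 of them members (Psmd13 and Psmg1). These counts moved with single activated libraries: they were 866 genes and 9 members without replicate 6, 522 and 5 without replicate 4 and 196 and 0 without replicate 5 of the mtDNA-NZB group, 209 and 1 without replicate 1 of the mtDNA-B6 group, and 1068 and 13 with the 21 libraries. DESeq2 called 0 genes, with 270 under an unadjusted p of 0.05. The differences ran from -0.42 to 0.45 on the log2 scale, the lowest that of Psma2 and the highest that of Psmg1 (SE 0.16), and 39 members were positive. The median SE of these differences was 0.14. Even the difference of Psmg1, at 0.45 with an SE of 0.16, was not called, so differences well above the SE could also have been missed.

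**Figure D4:**
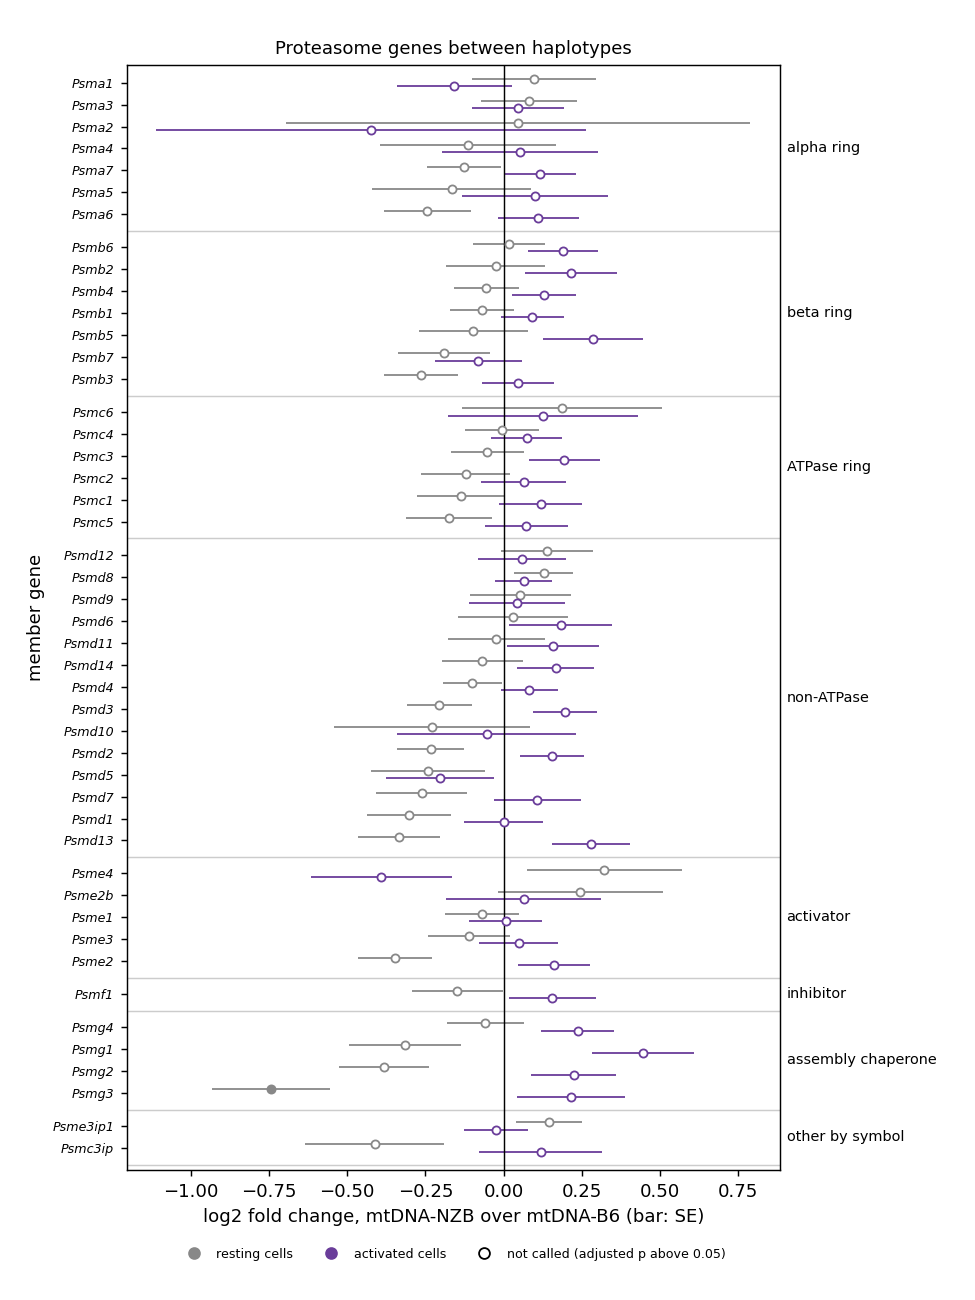
Log2 fold change of the 46 members tested (vertical axis, by role), mtDNA-NZB over mtDNA-B6, in resting (grey) and activated (purple) cells, 6 libraries per group; bars are SE, and open points are not called. Psmg3 at rest, at -0.74, is the only called point.

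The test of the difference between the haplotypes' responses to activation called no member and 0% of all genes, while 1512 genes, 8 of them members, had an unadjusted p under 0.05 (DESeq2: 1 gene called, 1411 under 0.05). The counts were 1825 genes and 14 members without replicate 6 of the activated and 994 and 8 without replicate 5 of the resting mtDNA-NZB group, 2022 and 18 with the 21 libraries, and 597 and 3 with the block by description number. With all libraries these members were Psmg3, Psmg1, Psmg2, Psmd13, Psmd2, Psmd3, Psme2 and Psme4. The 3 with the smallest p were Psmg3 (response larger in mtDNA-NZB cells by 0.96 on the log2 scale, SE 0.26, adjusted p = 0.207), Psmd13 (0.61, SE 0.18, adjusted p = 0.207) and Psmg1 (0.76, SE 0.24, adjusted p = 0.210). Psme4 was the only one of the 8 whose response was smaller in mtDNA-NZB cells (-0.71, SE 0.33). With the 21 libraries, Psmd13 (0.75, SE 0.16, adjusted p = 0.0428) and Psmg3 (1.05, SE 0.26, adjusted p = 0.0483) passed the threshold beside 1.04% of all genes, and neither did when the set of libraries was added as a term. The fitted response was larger in mtDNA-NZB than in mtDNA-B6 cells for 36 of 46 members, with a median difference of 0.18 beside 0.02 over all genes, and with the 21 libraries for 38, with a median of 0.30 beside -0.01.

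The immunoproteasome genes, measured in the same libraries, rose in both haplotypes. Psmb8 rose from 748 to 948 CPM to 1693 to 2189 CPM in mtDNA-B6 cells (log2 fold change 1.18, SE 0.14, adjusted p = 2.82e-07) and from 551 to 992 CPM to 1605 to 2435 CPM in mtDNA-NZB cells (1.42, SE 0.15, adjusted p = 1.70e-08). Psmb9 rose by 1.10 (SE 0.15, adjusted p = 1.89e-06) and 1.55 (SE 0.16, adjusted p = 1.41e-08), and Psmb10 by 0.89 (SE 0.13, adjusted p = 5.29e-06) and 1.17 (SE 0.14, adjusted p = 1.41e-07).

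Within each library the UMI count of an immunoproteasome gene was divided by that of the subunit it replaces, with 0.5 added to both, and 6 changes on activation were tested by a two-sided exact permutation test of 6 against 6 libraries, for which the smallest p is 0.00216. These tests were chosen with the values in view. The log2 ratio of Psmb9 to Psmb6 rose from -0.02 ± 0.24 to 0.52 ± 0.14 (SD, n = 6) in mtDNA-B6 cells (exact p = 0.00216, adjusted over 6 tests 0.00649) and from -0.50 ± 0.67 to 0.46 ± 0.17 in mtDNA-NZB cells (exact p = 0.00433, adjusted 0.00866). The ratio of Psmb10 to Psmb7 rose from 1.66 ± 0.13 to 2.01 ± 0.20 (SD, n = 6) in mtDNA-B6 cells (exact p = 0.00216, adjusted 0.00649), and in mtDNA-NZB cells its means were 1.81 ± 0.72 and 2.29 ± 0.42 (exact p = 0.199, adjusted 0.299). The ratio of Psmb8 to Psmb5 had means of 3.86 ± 0.33 and 3.99 ± 0.14 (SD, n = 6) in mtDNA-B6 cells (exact p = 0.439, adjusted 0.527) and of 3.76 ± 0.75 and 3.86 ± 0.10 in mtDNA-NZB cells (exact p = 0.764, adjusted 0.764). The resting mtDNA-NZB libraries did not lie around these means. For Psmb8 to Psmb5, replicates 1, 3 and 4 lay at 4.37 to 4.46, above all activated mtDNA-NZB libraries (3.74 to 4.01). Replicates 2, 5 and 6 lay at 2.89 to 3.39, below them all. For Psmb9 to Psmb6 the same replicates lay at 0.07 to 0.16 and at -1.23 to -0.96. Whether the changes in ratio differ between haplotypes was not tested.

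**Figure D5:**
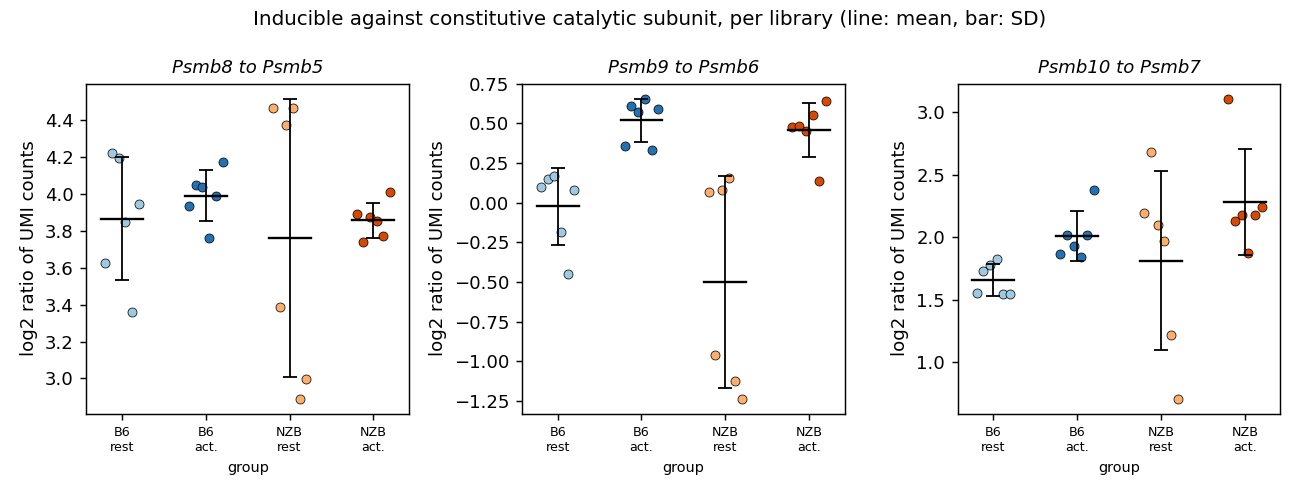
Log2 ratio of UMI counts of Psmb8 to Psmb5, Psmb9 to Psmb6 and Psmb10 to Psmb7 (vertical axes) in each of the 24 libraries by group; lines are means and bars SD of 6 libraries. The states separate for Psmb9 to Psmb6 and Psmb10 to Psmb7 in mtDNA-B6 cells, and the resting mtDNA-NZB libraries spread widest for all 3 ratios.

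Genes that work with the proteasome did not move as one. Of 24 tested genes on 5 lists (partners and assembly factors, ubiquitin and its activating enzymes, shuttle factors, transcription regulators and the segregase), 9 rose in mtDNA-B6 cells, where 4 fell, and 9 in mtDNA-NZB cells, where 5 fell. Among partners and assembly factors 5 of 8 rose in mtDNA-B6 and 4 of 8 in mtDNA-NZB cells. The largest called rise there in mtDNA-NZB cells was that of Pomp, which encodes the chaperone of beta ring maturation, with 215 to 279.6 CPM at rest and 455 to 519 CPM after activation in mtDNA-B6 cells (log2 fold change 0.99, SE 0.11, adjusted p = 6.67e-08) and a log2 fold change of 1.25 (SE 0.11, adjusted p = 2.00e-09) in mtDNA-NZB cells. Ecpas, for a scaffold that binds proteasomes, had the largest fitted change of the list in mtDNA-B6 cells (1.00, SE 0.34, adjusted p = 0.0181, and 0.0522 without replicate 1 of the resting mtDNA-B6 group), at 1.24 to 6.09 CPM, and Ube3c, for a ubiquitin ligase of the proteasome, the smallest (-0.02, SE 0.11, adjusted p = 0.913).

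Of the ubiquitin genes, Ubb fell by 0.67 (SE 0.20) and 0.63 (SE 0.20), whereas Uba1, for the enzyme that activates ubiquitin, rose by 0.56 (SE 0.10) and 0.65 (SE 0.10). Of the shuttle factors, Ubqln2 fell by 0.93 (SE 0.11) and 0.88 (SE 0.12), and Rad23b had the highest value in mtDNA-B6 cells (0.40, SE 0.18, adjusted p = 0.0666).

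Nfe2l1 and Nfe2l2, which encode transcription factors known to drive proteasome genes, fell at the RNA level in both haplotypes. Of all genes tested 24.5% fell in mtDNA-B6 and 28.4% in mtDNA-NZB cells. Whether these factors bear on the change of the members was not tested. Nfe2l1, whose product raises proteasome genes when the proteasome is inhibited, lay between 67.4 and 80.9 CPM at rest and between 51.2 and 61.9 CPM after activation in mtDNA-B6 cells and fell by 0.40 (SE 0.13, adjusted p = 0.0140) on the log2 scale, a call lost without replicate 3 or 6 of the resting group (adjusted p up to 0.0526). In mtDNA-NZB cells Nfe2l1 lay between 71.8 and 139.6 CPM and between 46.7 and 66.0 CPM and fell by 0.89 (SE 0.14, adjusted p = 6.34e-06), and its log2 difference from mtDNA-B6 cells at rest was 0.51 (SE 0.13, adjusted p = 0.0424). That call at rest was lost in 13 of the 24 fits that left out 1 library (replicate 5 or 6 of the resting mtDNA-NZB, any of the resting mtDNA-B6 or replicates 1 to 5 of the activated mtDNA-B6 group; 0.39 to 0.62, adjusted p up to 0.211) and in 7 other ways of processing, among them the 21 libraries. Nfe2l2, for the antioxidant response factor, fell by 0.99 (SE 0.15, adjusted p = 1.03e-05) and by 1.39 (SE 0.16, adjusted p = 1.23e-07). Ngly1, for the enzyme that processes the Nfe2l1 product, rose by 0.50 (SE 0.15) and 0.50 (SE 0.17). Vcp, for the ATPase that extracts ubiquitinated proteins for the proteasome, rose by 0.69 (SE 0.14, adjusted p = 0.000302) and 0.44 (SE 0.15, adjusted p = 0.0134), and Ufd1, for its cofactor, had log2 fold changes of 0.07 and 0.13 (adjusted p of 0.287 or more).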

How the data were processed

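RNA of Tconv CD4+ cells was measured in 24 libraries of 4 groups, mapped from the sample labels. 1 further column, for which no sample label was found, was left aside. The authors trimmed reads with cutadapt, aligned them by STAR against the last 1000 bases (3′ UTR regions) of genes in GRCm39, counted them with htseq-count, removed duplicate UMIs and corrected for saturation, and deposited the resulting whole-number counts. A second deposited table of larger counts served as an alternative. Genes outside the annotation used for names held 0.0272% of the UMI counts. Replicates were not repeats of one library: the chi-square of any pair within a group was 2.97 or more for each degree of freedom.

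In R 4.3.3, edgeR 4.0.16 (TMM, filterByExpr, quasi-likelihood test) was fitted over all 24 libraries, and p-values were adjusted over every gene tested (Benjamini-Hochberg). The SE was derived from the log2 fold change and its F statistic. The script was tested on simulated data. Ratios were tested in Python 3.11.15. The members, lists and tests were chosen with earlier results of these data known, and 1 listed gene is not reported here. Values per library are given for the catalytic subunits, for the largest and smallest change of each role in mtDNA-B6 cells, for any member that fell or differed between haplotypes, and for the 3 smallest p of the interaction; Psme2 was added after its values were seen. From the other lists, the immunoproteasome genes and the extremes of each list are named, with Ubb, Uba1, Pomp, Nfe2l2 and Ngly1 added after their values were seen. Alternatives were DESeq2 1.42.0, median-of-ratios size factors, other filters, a fold cut-off, the second table, 12 or 21 libraries, replicate blocks, library sets as a term, and leaving out each library. The set as a term over 21 libraries, and the alternatives for the ratios and for genes of the other lists, were added after the data were seen.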

Additional observations from a re-analysis of the deposited data

Results flagged for a closer look

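Among 100 groups of 6 values (the members with values per library, the sums and the ratios), 12 held 1 library far from the others by Dixon's test, which chance gives in about 1 in 20 groups. In the resting mtDNA-NZB group 7 of the 12 belonged to replicate 2, the library with 51409 UMI counts, where 1 count is 16.7 CPM. It was low for Psma3 (16.7 CPM, group median 73.6), Psmf1 (0, median 65.4) and Psme3ip1 (33.4, median 63.3) and high for Psmc6 (50.2, median 7.11), Psme2b (167, median 27.2), Psme4 (33.4, median 12.7) and Psmc3ip (33.4, median 11.9).

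In the resting mtDNA-B6 group replicate 5 was highest for Psmg1 (36.5 CPM, median 27.5) and Psme3ip1 (67.5, median 55.8). In the activated mtDNA-NZB group replicate 1 was highest for Psme2b (50.1 CPM, median 29.6) and for the log2 ratio of Psmb10 to Psmb7 (3.11, median 2.18), and in the activated mtDNA-B6 group replicate 6 was highest for that ratio (2.38, median 1.97).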

How the results depend on the processing

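The count of members that rose stayed between 32 and 36 in mtDNA-B6 and between 34 and 39 in mtDNA-NZB cells under all alternatives but a log2 fold change of at least 1, which left 1 and 13, and 0 at rest. Leaving out each library gave 34 to 36 and 36 to 38. At rest the single call, Psmg3, was lost (0 members) with the second table, 12 libraries, the block by title number and the set of libraries as a term. Leaving out each library gave 0 to 2 there, with 0 without replicate 5 of the resting mtDNA-NZB or replicate 1, 3, 4 or 5 of the resting mtDNA-B6 group, and 2 without replicate 3 of the resting mtDNA-NZB group. Over all genes, 292 calls at rest became 662 with 21 libraries, 451 with DESeq2, 72 with the block by title number, 43 with the second table, 1 with the set as a term, 0 with 12 libraries and 0 to 587 without 1 library. After activation no alternative called a member. For the interaction, 21 libraries called 2 members and 113 genes, and no other alternative called a member.

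Signs that turned belonged to values that were not called. Psmc6 in mtDNA-B6 cells was 0.14 with the set as a term and -0.15 to 0.061 without 1 library. In mtDNA-NZB cells it was 0.32 with 21 libraries, 0.30 with the set as well and -0.33 to 0.074 without 1 library. Psmg2 in mtDNA-B6 cells was -0.015 with the stricter filter (50 counts in 6 libraries), -0.0030 with the block by description number, -0.021 with the set as a term, -0.13 with 21 libraries and the set, and -0.0073 to 0.085 without 1 library. Psme2b in mtDNA-NZB cells was -0.087 with the second table. The change of the log2 ratio of Psmb8 to Psmb5 in mtDNA-NZB cells was -0.13 with the second table, -0.22 with 21 libraries and -0.079 to 0.24 without 1 library. The causes were not tested. Of 1362 recomputed changes of the 19 members planned for values per library, 1309 kept direction and call, 38 lost the call and 15 turned. Some of these changes were not called in the main fit and so had no call to lose. Lost calls of the other members lie outside this tally.

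The labels of resting and activated libraries share numbers, and the study's methods describe splitting each purified cell type between rest and activation. A shared description number may thus mark a shared donor. In the 9 pairs by description number the correlation of deviations ran from -0.16 to 0.25. This cannot decide the question, because RNA of other cell types varied widely at rest (neutrophil markers 405 to 20188 CPM, and 7.41 to 177 CPM after activation). The main fit treated the libraries as unpaired. The replicate block by description number called 32 members in mtDNA-B6 and 34 in mtDNA-NZB cells, and the block by title number 34 and 37. Other calls on activation that an alternative ended, beside those of Psmg3 and Psmd4, were, in mtDNA-B6 cells, Psma1 and Psmg1 (21 libraries with the set as a term), Psma4 (second table, block by description number), Psma5 and Psmd11 (that block, and for Psmd11 without replicate 2 of the activated group) and, of the other genes named, Ecpas and Nfe2l1 (that block, the set as a term), Ubb (the set) and Ngly1 (second table, the set). In mtDNA-NZB cells they were Psma3, Psmf1 and Ubb (that block), Psmf1 and Vcp (12 libraries), and Psma4 and Ngly1 (second table). Depth limits Psmc6, Psma4 and Psmd10, at few CPM, and every value of the library with 51409 UMI counts.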
